A study of Mus musculus with 6 samples.

Results

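The nuclear-encoded subunits of the mitochondrial respiratory chain were followed in RNA sequencing libraries of CD11b-positive bone marrow cells from mice labelled Tshr+/+ and Tshr-/-. Tshr is the gene of the receptor of thyroid-stimulating hormone. The members were all protein-coding genes outside the mitochondrial genome whose symbol begins as those of the 5 complexes do: Ndufa, Ndufb, Ndufc, Ndufs or Ndufv with a number, Sdha to Sdhd, Uqcr, Cox4 to Cox8 with a letter, and Atp5. Names alone chose them, not values. The rule found 85 of the 54532 genes of the table, of which 37 belong to complex I, 4 to complex II, 8 to complex III, 18 to complex IV and 18 to complex V. They carry 84 symbols, because Atp5o stands for a pair of gene identifiers, and 1 of these (ENSMUSG00000116933) was listed at 0 in every library. A further 12 genes have matching names but another biotype and were not counted as members. Of these, 11 are processed pseudogenes, and Ndufb1-ps, annotated as a long non-coding RNA, held 23.2 to 39.0 FPKM. The 85 members lie on 19 chromosomes, with at most 8 on 1 chromosome (chromosome 7).

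Gene expression was given as FPKM, in which fragments of a gene are divided by its length and by library size. The 2 groups were 3 libraries labelled Tshr+/+ (wild type) and 3 labelled Tshr-/-, numbered as mice 1 to 3 in each, all from tibia bone marrow of animals aged 12 weeks. Every group was purified for CD11b with a positive selection kit, and every sample carries the treatment label osteoclast differentiation without a time. The titles call the mutants Tshr-/- while the genotype label speaks of a knockdown, and no label says which part of the gene is altered or names a promoter or Cre that would restrict the change to a cell type. The p-values below measure the spread between these libraries.

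The respiratory chain passes electrons from NADH (complex I) and succinate (complex II) through ubiquinone to complex III, then through cytochrome c to complex IV and oxygen. Complexes I, III and IV pump protons across the inner membrane, and complex V uses their return to make ATP. A few core subunits are encoded in the mitochondrial genome and all others in the nucleus, most of them among the genes described here. Neutrophils, the commonest CD11b-positive cells of marrow, rely largely on glycolysis, whereas osteoclasts are rich in mitochondria.

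The libraries held 14698126 to 17976477 fragments, of which 0.487% to 0.566% belonged to the members. Tshr itself held 55, 55 and 45 fragments in the libraries labelled Tshr+/+ 1 to 3, and 40, 25 and 1 in those labelled Tshr-/- 1 to 3. Its mean was 0.498 ± 0.0811 and 0.239 ± 0.209 FPKM (SD, n = 3), and an exact two-sided permutation test gave p = 0.2 (0.1 is the lowest possible with 3 libraries a group). In FPKM, Tshr-/- 1 (0.414) lay within the range of the libraries labelled Tshr+/+ (0.405 to 0.552). Tshr-/- 2 (0.297) and Tshr-/- 3 (0.00825) lay below it. No label says which part of the gene is altered, and whether Tshr-/- 1 and 2 match their label was not tested. Groups are therefore named by label throughout. Itgam, the gene of CD11b and the defining marker of the sort, was at 87.4 to 134 FPKM in all 6 libraries, and no listed cell type marker was at 0 in all 6 libraries. Calcr, an osteoclast marker, was at 0 in 5 libraries, the T cell marker Cd3e in 3 and the erythroid marker Klf1 in 1. In such bulk samples fewer cells of a type and less RNA per cell cannot be told apart.

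No respiratory chain subunit differed between the genotypes past the threshold. Of the 85 members, 77 reached 1 FPKM in 3 or more of the 6 libraries and were tested (35 of complex I, 4 of II, 8 of III, 13 of IV and 17 of V). With limma on log2(FPKM + 1), 0 of the 77 had an adjusted p under 0.05, as did 0 of all 10913 genes tested (0%). On whole fragments, limma's voom called 0 members as well. At an unadjusted limma p under 0.05 stood 1 member, Ndufs5, beside 317 of all genes (2.9%). The groups did not overlap for 5 members (Ndufs5, Sdhb, Uqcrfs1, Uqcrc2 and Atp5d), beside 739 of all genes (6.77%), so that the members' share of 5 in 77 stood near the background. That background counts both directions. In each of the 5, all libraries labelled Tshr-/- lay below those labelled Tshr+/+, and 0 members had them all above. Of all 10913 genes, 387 had them all below and 352 all above. In the downward direction alone the members' share was thus above that of all genes, which was not tested.

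The size of the difference was bounded for most members. The 95% limma interval of the difference, not adjusted, lay within 0.5 of 0 on the log2 scale for 69 of the 77 and within 1 for all 77. The median log2 difference (Tshr-/- minus Tshr+/+) was -0.011 over the 77 members and -0.011 over all genes tested. It was -0.0079 for complex I, -0.046 for complex II, 0.026 for complex III, -0.015 for complex IV and -0.014 for complex V. Of the members 33 had a difference above 0 and 44 below.

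**Figure D1:**
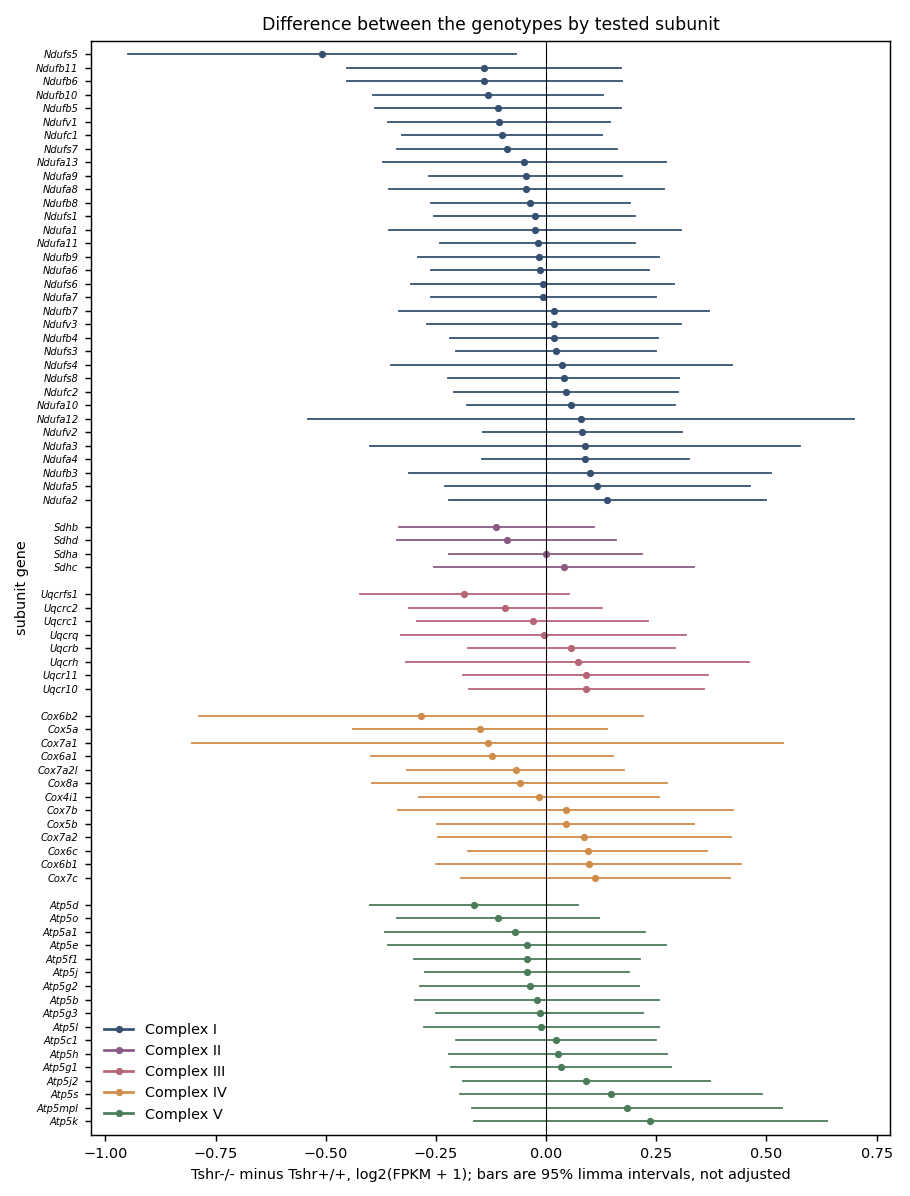
Difference between the genotypes for 76 of the 77 tested subunits, grouped and coloured by complex and ordered by size. Points are fitted differences (Tshr-/- minus Tshr+/+) on the log2(FPKM + 1) scale, and bars are 95% limma intervals without adjustment. Ndufs5 at -0.51 is the only member drawn whose bar does not cross 0.

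The member that stood apart was Ndufs5, an accessory subunit on the intermembrane-space side of complex I. The gene (ENSMUSG00000028648) lies at chr4:123712710-123718202 of GRCm38 on the minus strand. It held 31.5, 32.8 and 33.5 FPKM in the libraries labelled Tshr+/+ 1 to 3 and 18.4, 20.5 and 30.5 FPKM in those labelled Tshr-/- 1 to 3. The libraries labelled Tshr-/- 1 and 2 were low, while Tshr-/- 3 lay just under the lowest wild-type library. The log2 difference was -0.51 ± 0.19 (SE), with an unadjusted limma p of 0.0295 and an adjusted p of 0.9997. Leaving out Tshr-/- 1 and 2 gave -0.09, and leaving out Tshr-/- 3 gave -0.72, neither past the threshold with limma (adjusted p = 0.933 and 0.419). The first of these leaves 1 library labelled Tshr-/-, which is assumed to vary like the other group. The smallest adjusted limma p under any setting tried was 0.0728, with array weights, which weight each library.

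Ndufs5 has a near-identical processed copy, BC002163, that held fragments in the same libraries in which Ndufs5 was low. A processed copy is a spliced transcript that was reverse transcribed and inserted elsewhere in the genome. BC002163 (ENSMUSG00000081824, a processed pseudogene) lies at chr16:42955631-42955949 on the plus strand, within an intron of Zbtb20. Its 319 bases match the 321-base coding sequence of Ndufs5 with 99.4% identity. The 2 substitutions are T81C and A105G, counted from 1 at the A of the start codon of Ndufs5, with the Ndufs5 base first. Coding bases 66 to 120 of Ndufs5 (GENCODE M21 transcript, GRCm38) and the matching stretch of the copy are shown because, within the shared 319 bases, a fragment can be told apart only where it covers one of these positions, which are in capitals.
Ndufs5: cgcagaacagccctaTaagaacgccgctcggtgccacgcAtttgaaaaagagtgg
BC002163: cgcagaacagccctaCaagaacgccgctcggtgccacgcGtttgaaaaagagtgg

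The fragments assigned to the pair were divided differently in the libraries labelled Tshr-/- 1 and 2. BC002163 held 5, 6 and 9 fragments in the libraries labelled Tshr+/+ 1 to 3 and 158, 144 and 4 in those labelled Tshr-/- 1 to 3. Ndufs5 held 461, 468 and 533 fragments in the former and 255, 247 and 529 in the latter. As a share of both genes' fragments, the copy took 1.07%, 1.27% and 1.66% in the libraries labelled Tshr+/+ and 38.3%, 36.8% and 0.750% in those labelled Tshr-/-. The 95% Wilson intervals were 33.7% to 43.0% for Tshr-/- 1 and 32.2% to 41.7% for Tshr-/- 2, and at most 3.13% at the upper bound for each of the other 4 libraries. These intervals cover counting error only. The library labelled Tshr-/- 3 was like wild type in this share, and the split did not follow the genotype label. BC002163 was named after its values were seen; its own log2 difference was 2.46 ± 1.11 (SE, limma adjusted p = 0.9997).

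With the fragments of both genes added and put on the length of Ndufs5, the difference was smaller. The summed level was 31.8, 33.3 and 34.1 FPKM for the label Tshr+/+, beside 29.9, 32.4 and 30.8 FPKM for Tshr-/-. The groups then overlapped, with a log2 difference of -0.09 ± 0.09 (SE, limma adjusted p = 0.9997). The sum was chosen after seeing the data. The libraries labelled Tshr-/- 1 and 2 are also those with 40 and 25 fragments of Tshr. They also held more of mt-Nd3, a complex I subunit gene of the mitochondrial genome: 8.40 and 8.81 FPKM, beside 2.28 in Tshr-/- 3 and 0.867 to 2.18 in the libraries labelled Tshr+/+ (log2 difference 1.48 ± 0.44, SE, limma adjusted p = 0.9997). The part that either plays in the Ndufs5 values was not tested.

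**Figure D2:**
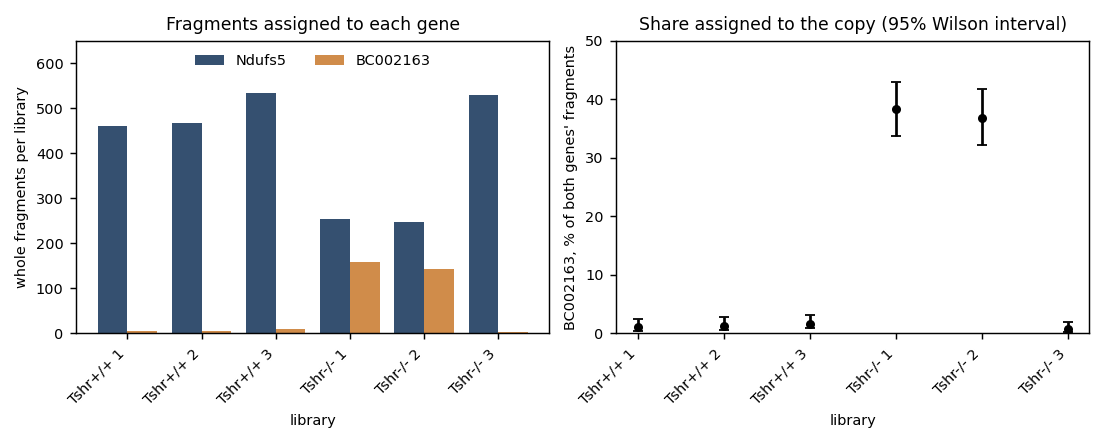
Left, whole fragments assigned to Ndufs5 and to its processed copy BC002163 in each library; right, the share of the pair's fragments assigned to the copy, in percent, with 95% Wilson intervals. The share is 38.3% and 36.8% in the libraries labelled Tshr-/- 1 and 2 and between 0.750% and 1.66% in the other 4.

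Other members share their sequence with copies too. A search of the coding sequences against annotated transcripts with BLAST (at least 90% identity over at least 50% of the coding sequence) found 77 copies of 32 of the 84 members with a coding sequence, and 75 of the copies are processed pseudogenes. Copies took 10% or more of the joint fragments on average for 6 members. For Ndufa12, an accessory subunit of complex I, the copy Gm15920 in an intron of Rabgef1 took 60.5% to 81.0%. Copies took 24.4% to 34.6% for Atp5g1, 20.02% to 25.5% for Atp5l, 13.2% to 17.0% for Atp5h and 9.07% to 11.2% for Cox7c. In each of these 5 the shares of both groups overlapped. Between the lowest and highest library the share differed by 37.5 percentage points for Ndufs5 and by at most 20.4 points, for Ndufa12, in the other members with copies. For 19 members the copies held under 1% on average. The levels of the 6 are uncertain to that extent, since the sources used here do not say how reads with several matches were counted. These copies were named after their values were seen.

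Complex I takes electrons from NADH, and its 7 nuclear core subunits form the path of the electrons to ubiquinone. Ndufv1, the NADH-binding subunit, had 20.6 ± 1.45 FPKM in the libraries labelled Tshr+/+ and 19.0 ± 1.33 in those labelled Tshr-/- (SD, n = 3). It held 19.1, 22.0 and 20.6 FPKM in the libraries numbered 1 to 3 of the first group and 18.2, 18.4 and 20.6 in those of the second. The groups overlapped, and Tshr-/- 1 and 2 were the lowest of the 6 libraries. Ndufs1, the largest iron-sulfur subunit, stood lowest in FPKM, at 5.32 ± 0.194 and 5.21 ± 0.183. Its gene model of 8086 bases lowers its FPKM, and it was not the lowest in fragments. Ndufs1 held 614 to 834 fragments, beside 283 to 375 for Ndufs3 with a model of 2178 bases. Ndufv2, Ndufs3, Ndufs7 and Ndufs8 had log2 differences of 0.08, 0.02, -0.09 and 0.04.

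The accessory subunits of complex I covered a wider range of levels. The most abundant were Ndufa1, a small membrane-arm subunit, at 109 ± 10.9 and 107 ± 13.8 FPKM, and Ndufa2, a subunit of the peripheral arm, at 95.4 ± 7.56 and 106 ± 17.6 FPKM (SD, n = 3). Ndufa2 held 90.6, 104 and 91.6 FPKM in the libraries labelled Tshr+/+ 1 to 3 and 119, 114 and 85.9 in those labelled Tshr-/- 1 to 3. The libraries labelled Tshr-/- 1 and 2 were the highest of the 6 and Tshr-/- 3 the lowest, and the log2 difference of 0.14 ± 0.15 (SE) was -0.15 without Tshr-/- 1 and 2. Ndufb10, of the membrane arm, had the smallest p below 0 after Ndufs5, at 41.5 ± 3.53 and 37.7 ± 2.27 FPKM. Ndufa4, named for complex I but since found in complex IV, had 42.5 ± 2.40 and 45.3 ± 1.98 FPKM. Counting Ndufa4 and Ndufa4l2 with complex IV changed the median log2 difference of complex IV to 0.014 and that of complex I to -0.011.

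A pair of complex I genes fell below the filter. Ndufb2, a membrane-arm subunit, held 0.596 to 0.965 FPKM, from 47 to 90 fragments over a gene model of 5628 bases, where the median of the tested complex I members was 1495 bases. FPKM divide by that length, but Ndufb2 also held few fragments. Ndufb5 and Ndufb7, with models of 4995 and 4522 bases, held 294 to 499 and 1488 to 1835 fragments. Ndufa12, with 1569 bases, held 28 to 79. The part of the length in the low place of Ndufb2 was not tested. Ndufa4l2, the hypoxia-inducible relative of Ndufa4, was listed at 0 in 5 libraries and at 0.0536 FPKM in Tshr+/+ 1.

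Complex II oxidises succinate and is the only complex with no subunit from the mitochondrial genome. Sdhb, its iron-sulfur subunit (chr4:140961203-140979193), held 28.4, 30.7 and 29.0 FPKM in the libraries labelled Tshr+/+ 1 to 3 and 27.3, 26.0 and 27.8 in those labelled Tshr-/- 1 to 3. All 3 values of the latter were below all 3 of the former, by little: the log2 difference was -0.11 ± 0.09 (SE), with a limma adjusted p of 0.9997. Sdha, the flavoprotein that holds the succinate site, had 26.0 ± 0.685 and 26.0 ± 1.06 FPKM (SD, n = 3), a log2 difference of -0.0012 whose sign turned under several settings. The membrane anchors differed from each other in level, with Sdhd at 67.0 ± 5.005 and 62.8 ± 2.63 FPKM and Sdhc at 12.2 ± 1.63 and 12.5 ± 0.921 FPKM. The sum over the 4 subunits was 135 ± 3.82 FPKM in the libraries labelled Tshr+/+ and 128 ± 3.14 in those labelled Tshr-/-. Each sum of the second group, 125 to 130 FPKM, lay below each of the first, 131 to 138 FPKM, but the nearest pair stood at 130.5 and 130.4 FPKM. With the FPKM rescaled to equal totals the median difference of complex II was 0.0049. Those of complex I (0.042), IV (0.036) and V (0.036) and of all members (0.037) also turned above 0, so that the direction of these medians depends on the scaling.

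Complex III passes electrons from ubiquinol to cytochrome c. Uqcrfs1, the Rieske iron-sulfur protein (chr13:30540308-30545362), had 67.5, 61.5 and 60.5 FPKM in the libraries labelled Tshr+/+ 1 to 3 and 57.4, 53.2 and 55.6 FPKM in those labelled Tshr-/- 1 to 3. The groups did not overlap, and the log2 difference was -0.19 ± 0.10 (SE, limma adjusted p = 0.9997). It was -0.18 without the libraries labelled Tshr-/- 1 and 2 and -0.13 with equal totals. Uqcrc2, a large core protein of the matrix side, had 23.3, 22.9 and 23.6 FPKM beside 22.8, 21.6 and 20.9 FPKM. These too did not overlap, though the nearest libraries, Tshr+/+ 2 and Tshr-/- 1, were 22.9 and 22.8 FPKM. Its partner Uqcrc1 overlapped between the groups, with 33.2 ± 2.65 and 32.5 ± 2.44 FPKM (SD, n = 3). The small subunits Uqcr10 and Uqcr11 had log2 differences of 0.09 each, and Uqcr10 was the most abundant of the complex at 75.8 ± 7.07 and 80.7 ± 3.58 FPKM.

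Complex IV, cytochrome c oxidase, held the most abundant members. Its catalytic subunits come from the mitochondrial genome, and the nuclear ones surround and stabilise them. Cox8a, the smallest, had 312, 358 and 310 FPKM in the libraries labelled Tshr+/+ 1 to 3 and 321, 351 and 270 FPKM in those labelled Tshr-/- 1 to 3. Cox6a1 followed with 260.5 ± 20.2 and 239 ± 14.9 FPKM, and Cox4i1 with 153 ± 7.68 and 152 ± 14.3 FPKM (SD, n = 3). In Cox8a and Cox4i1 the highest values came from the libraries numbered 2 of both groups and the lowest from Tshr-/- 3. Cox5a, which joins the complex early together with Cox4i1, and Cox5b had log2 differences of -0.15 ± 0.12 and 0.04 ± 0.12 (SE). Cox6c and Cox7c, small membrane subunits, had 0.09 ± 0.11 and 0.11 ± 0.13 (SE), and both turned below 0 (-0.0093 and -0.09) without the libraries labelled Tshr-/- 1 and 2. No tested member of complex IV was without overlap between the groups.

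Several complex IV subunits exist as isoforms from separate genes, and the ubiquitous isoform was the higher in each family. Cox4i2, an isoform of lung, Cox6a2 and Cox8b, of heart and skeletal muscle, and Cox7b2 and Cox8c, of testis, fell below the filter, with at most 0.968 FPKM in any library (Cox4i2 in Tshr+/+ 1). Cox7b2 was listed at 0 in 5 libraries and Cox8c in 3, and these low values rest on few fragments. Cox6b2, known from testis, and Cox7a1, of muscle (0.649 to 2.37 FPKM), passed the filter. Cox6b2 held 4.77 to 10.2 FPKM, in every library below Cox6b1 at 81.0 to 108 FPKM. The mean ratio of FPKM was 13.5 for Cox6b1 over Cox6b2. Cox6b2 held 7.36, 6.59 and 10.2 FPKM in the libraries labelled Tshr+/+ 1 to 3 and 4.77, 6.69 and 7.93 FPKM in those labelled Tshr-/- 1 to 3, which overlap (log2 difference -0.28 ± 0.21, SE).

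The order of isoforms was tested over the 6 libraries for the 7 pairs in which both had at least 1 FPKM on average. In 6 pairs the same gene was higher in 6 of 6 libraries (exact two-sided sign-flip permutation test, p = 0.03125, the smallest that 6 libraries allow, adjusted p = 0.0365 over 7 pairs). The test was made on log2(FPKM + 1), whereas the folds given here are ratios of mean FPKM. Cox7a2 exceeded Cox7a1, the muscle isoform, by 40.2-fold in mean FPKM, with a mean log2 ratio of 4.66 on the scale tested. Cox7a1 rested on only 7 to 21 fragments a library. Cox7a2l, a relative that joins complexes III and IV into supercomplexes, exceeded Cox7a1 by 58.1-fold and Cox7a2 by 1.45-fold. Among the Atp5g genes of complex V, Atp5g2 and Atp5g3 exceeded Atp5g1 by 7.95-fold and 8.18-fold, with 24.4% to 34.6% of the fragments of Atp5g1 and its copies assigned to the copies. The gene model of Atp5g1 is longer, with 4912 bases beside 1675 for Atp5g2 and 2181 for Atp5g3, which lowers its FPKM. In whole fragments Atp5g1 held 325 to 488, Atp5g2 874 to 1322 and Atp5g3 1226 to 1883. Atp5g3 and Atp5g2 did not differ past the threshold, with a mean log2 ratio of 0.04 ± 0.08 (SD, n = 6, Atp5g3 higher in 4 of 6 libraries, exact permutation p = 0.25).

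**Figure D3:**
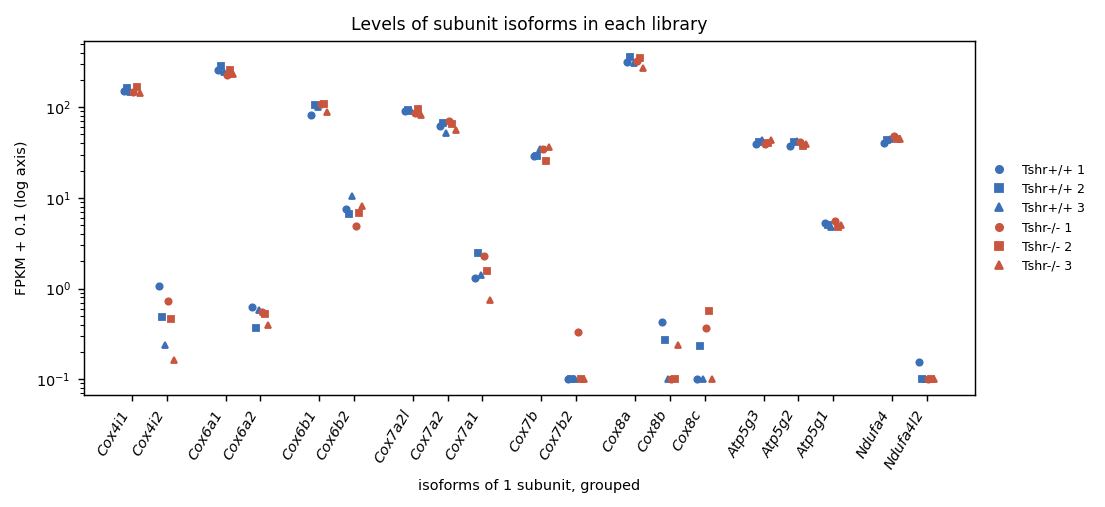
FPKM of subunit isoforms in each of the 6 libraries, with 0.1 added so that values at 0 can be drawn; the vertical axis is logarithmic. Colour marks the group (blue Tshr+/+, red Tshr-/-) and the symbol the library number. Cox6b2 and Cox7a1 hold values above 0.6 FPKM in every library, whereas Cox4i2, Cox6a2, Cox7b2, Cox8b, Cox8c and Ndufa4l2 stay below 1 FPKM.

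Atp5g1, Atp5g2 and Atp5g3 encode the subunit c of the proton-turning ring of complex V with different import signals. A stretch of 90 coding bases that the 3 genes share (GENCODE M21 transcripts, GRCm38) is shown because it holds 26 positions, in capitals, at which they are not all alike. A fragment from it can be told apart only at these positions, and some of them do not separate all 3 genes from each other.
Atp5g1: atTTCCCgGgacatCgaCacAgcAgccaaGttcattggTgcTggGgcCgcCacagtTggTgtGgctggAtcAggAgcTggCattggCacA
Atp5g2: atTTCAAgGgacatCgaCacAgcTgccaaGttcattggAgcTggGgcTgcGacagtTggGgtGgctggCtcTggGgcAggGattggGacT
Atp5g3: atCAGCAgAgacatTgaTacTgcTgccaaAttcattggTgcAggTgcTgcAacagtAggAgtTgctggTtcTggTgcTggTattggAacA
Over the last 237 coding bases, the stop codon included, identity was 84.8% between Atp5g1 and Atp5g2, 78.5% between Atp5g1 and Atp5g3 and 77.2% between Atp5g2 and Atp5g3. Atp5g2 and Atp5g3, the most distant pair there, had near levels. Atp5g2 held 40.1 ± 3.003 FPKM under the label Tshr+/+ and 39.1 ± 1.94 under Tshr-/-, and Atp5g3 held 41.0 ± 2.07 and 40.6 ± 2.08 FPKM (SD, n = 3).

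In complex V, ATP synthase, the catalytic head was led by Atp5a1 and Atp5b, its alpha and beta subunits. Atp5a1 had 111, 109 and 116 FPKM in the libraries labelled Tshr+/+ 1 to 3 and 105, 94.1 and 122 FPKM in those labelled Tshr-/- 1 to 3. Atp5b had 108, 102 and 100.2 FPKM beside 104, 90.1 and 111 FPKM. For both, Tshr-/- 2 was the lowest and Tshr-/- 3 the highest of the 6 libraries, whereas Tshr-/- 3 was the lowest for Cox8a and Cox4i1. Atp5c1, the rotating gamma subunit, varied least in the head, with 56.8 ± 2.61 and 57.7 ± 1.58 FPKM (SD, n = 3). Atp5d, the delta subunit of the central stalk (chr10:80138632-80145818), had 48.0, 50.2 and 50.1 FPKM beside 40.8, 45.4 and 46.2 FPKM. Its groups did not overlap, with a log2 difference of -0.16 ± 0.10 (SE, limma adjusted p = 0.9997).

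The stalk and membrane subunits of complex V had differences in both directions. Atp5o, the stalk subunit that confers sensitivity to oligomycin, had 18.0 ± 1.03 and 16.6 ± 0.621 FPKM (SD, n = 3). Atp5k, a small subunit at which ATP synthase pairs up, had the highest positive difference of all 77 members, 0.24 ± 0.17 (SE). Its values were 32.6, 49.4 and 46.3 FPKM in the libraries labelled Tshr+/+ 1 to 3 and 48.7, 53.0 and 47.7 FPKM in those labelled Tshr-/- 1 to 3. Only Tshr+/+ 1 stood apart, and without it the difference was 0.06. Atp5mpl, a short membrane protein of the complex, showed the same pattern, with 19.7, 26.3 and 27.6 FPKM beside 29.7, 27.8 and 25.9 FPKM and a difference of 0.18 ± 0.15 (SE), or 0.04 without Tshr+/+ 1. Atp5s passed the filter only narrowly, with a mean of 0.993 FPKM.

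The members shared differences between libraries that did not follow the genotype label. Relative to the mean of the 3 libraries labelled Tshr+/+, the mean log2 level over the 77 members was -0.08 in Tshr+/+ 1, 0.06 in Tshr+/+ 2 and 0.02 in Tshr+/+ 3. It was 0.02, 0.02 and -0.08 in Tshr-/- 1, 2 and 3. In FPKM, the library labelled Tshr-/- 3 was the lowest of the 6 for 25 members and Tshr+/+ 1 for 20. On this scale 1 library of each group thus lay low. The low place of Tshr-/- 3 depended on the scaling. The 85 members took 0.927% of its summed FPKM, beside 0.787% to 0.874% in the other libraries, and 0.560% of its fragments. In Tshr+/+ 1 these shares were 0.787% and 0.487%. Over all genes tested Tshr-/- 3 was the lowest for 18.8% and Tshr+/+ 1 for 17.0%. The highest library was most often Tshr+/+ 2 and Tshr-/- 1, with 20 members each. Without the libraries labelled Tshr-/- 1 and 2, the median difference of the members was -0.09, while that of all genes was -0.013.

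**Figure D4:**
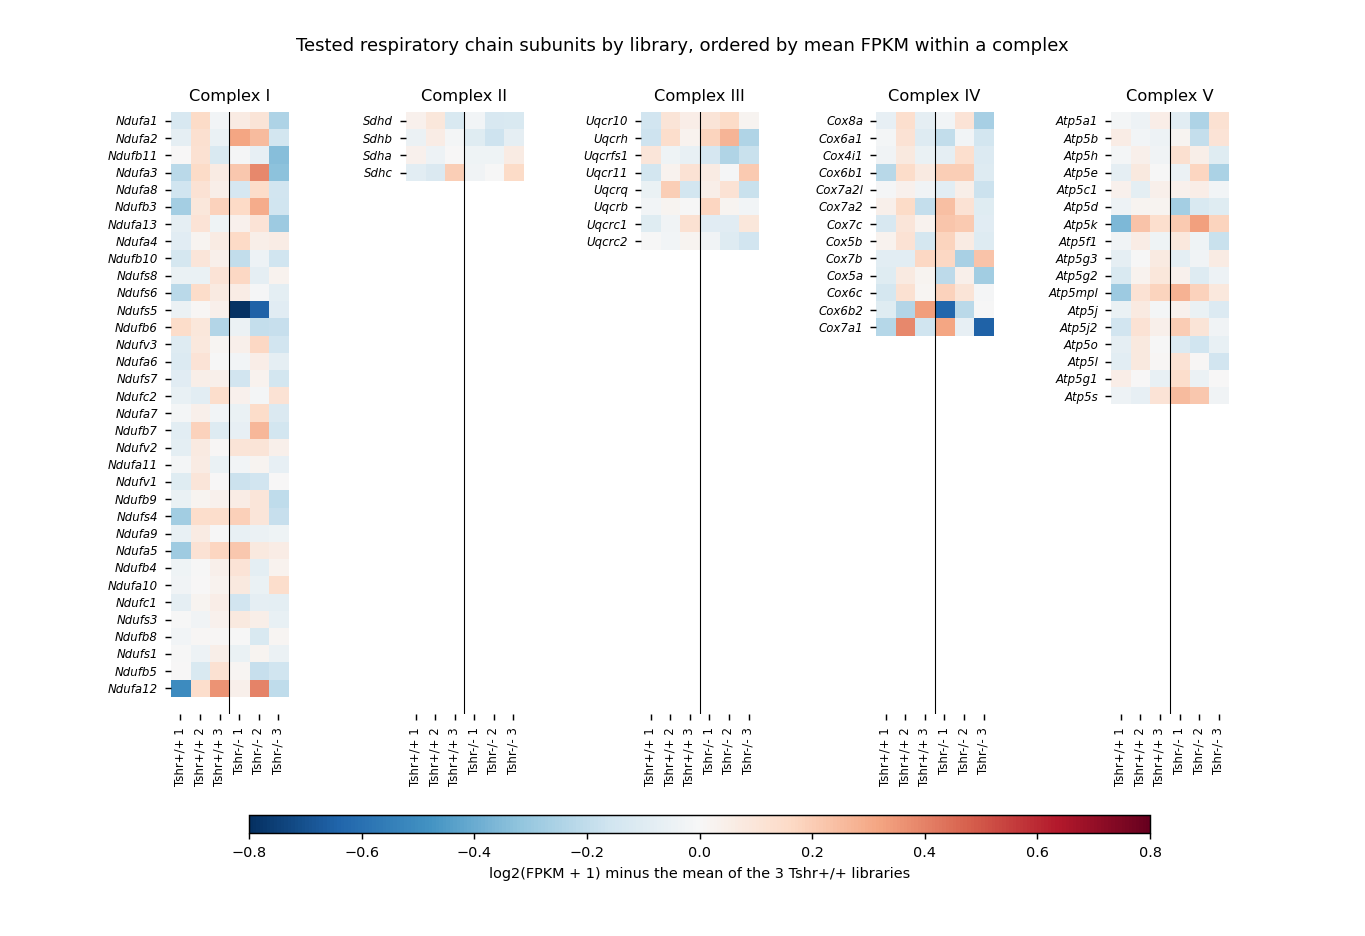
Level of 76 of the 77 tested subunits in each library as log2(FPKM + 1) minus the mean of the 3 libraries labelled Tshr+/+ (blue lower, red higher), with subunits in order of mean FPKM within each complex. The columns Tshr+/+ 1 and Tshr-/- 3 are bluer than their neighbours in complexes I and IV, and Ndufs5 is dark blue in Tshr-/- 1 and 2.

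In the low libraries, members with short gene models lay lower than those with long ones, by length classes chosen after seeing the data. For the 19 tested members under 1000 bases, the median deviation of log2(FPKM + 1) from the mean of the 6 libraries was -0.12 in Tshr+/+ 1 and -0.11 in Tshr-/- 3. For the 28 members of 2000 bases or more it was -0.04 and -0.03. Over all 1567 tested genes under 1000 bases the same medians were 0.0049 and -0.06, and over the 7990 of 2000 bases or more 0.01 and 0.0058. The summed level of 12 mature neutrophil markers was lowest in Tshr-/- 3 as well, at 93837 FPKM. It was 116514 to 140782 in the libraries labelled Tshr+/+ and 131977 and 145408 in Tshr-/- 1 and 2. Most of this sum was S100a9 and S100a8, at 34947 and 25941 FPKM in Tshr-/- 3. The summed FPKM of all genes was also lowest in Tshr-/- 3, at 348454 beside 395049 to 451384 in the other libraries. The marker sums were not rescaled for this. Each marker of the list was lowest in Tshr-/- 3 except Il1b, Csf3r and Cxcr2, and Il1b was highest there, at 568 FPKM. The 8 osteoclast markers summed to 847 FPKM in Tshr-/- 3, 1051 and 1507 in Tshr-/- 1 and 2, and 1040 to 1142 in the libraries labelled Tshr+/+. Most of the osteoclast sum was Mmp9, a gene that the neutrophil list also holds. Without Mmp9 the other 7 osteoclast markers summed to 31.6 FPKM in Tshr-/- 3, 27.6 and 87.4 in Tshr-/- 1 and 2, and 24.1, 29.8 and 43.6 in Tshr+/+ 1 to 3, so that Tshr+/+ 1 was then the lowest library. The neutrophil sum was 123192 FPKM in Tshr+/+ 1, which was not the lowest. The 7 monocyte markers summed to 539 to 580 FPKM and 544 to 657 FPKM in the 2 groups, and the 7 B and plasma cell markers to 393 to 693 and 260 to 456 FPKM. Most of the B and plasma cell sum was Igkc (log2 difference -0.85). Ighm, at 0.53, was the only tested marker of that list with a difference above 0. The part of the cell types in the level of the subunits was not tested.

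Spread between libraries was smaller for the subunits than for most genes. The median coefficient of variation over the 6 libraries was 7.94% for the 77 members, beside 15.9% over all genes tested and 14.3% over protein-coding genes. The members had a median level of 31.2 FPKM beside 6.16 FPKM over all genes, and more fragments give less counting error. It was 7.57% for complex I, 6.05% for complex II, 7.86% for complex III, 10.3% for complex IV and 7.14% for complex V. The 20 core subunits had a median of 6.83% and the other 57 tested members 8.92%. Within complex I the 7 core subunits had 4.92% and the other 28 had 9.48%, and the gene models of the core were longer, with medians of 2178 and 1234 bases. A low spread was not particular to the subunits. Among the other gene lists described below, the assembly factors of complex V had 8.80%. Those that are not assembly factors had 9.41% (cytosolic ribosomal proteins) to 14.9% (regulators of respiratory genes). The assembly factors of complexes I to IV had 16.5% to 19.0%. No test was made of these differences.

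Summed over their subunits, the complexes kept similar levels in both groups. Complex I summed to 1075 ± 68.4 FPKM in the libraries labelled Tshr+/+ and 1066 ± 81.9 in those labelled Tshr-/- (SD, n = 3), complex III to 379 ± 17.9 and 381 ± 15.6, complex IV to 1175 ± 76.9 and 1150 ± 93.0, and complex V to 718 ± 22.7 and 714 ± 11.6. The 85 members together gave 3320, 3669 and 3454 FPKM in the libraries labelled Tshr+/+ 1 to 3 and 3511, 3577 and 3232 in those labelled Tshr-/- 1 to 3. The 13 subunits of the mitochondrial genome summed to 4338 ± 107 and 4382 ± 363 FPKM. The library labelled Tshr-/- 3 was the lowest for the nuclear and, at 4784 FPKM, the highest for the mitochondrial subunits. The ratio of mitochondrial to nuclear sums was therefore 1.48 there, and 1.16 to 1.33 in the other 5 libraries.

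**Figure D5:**
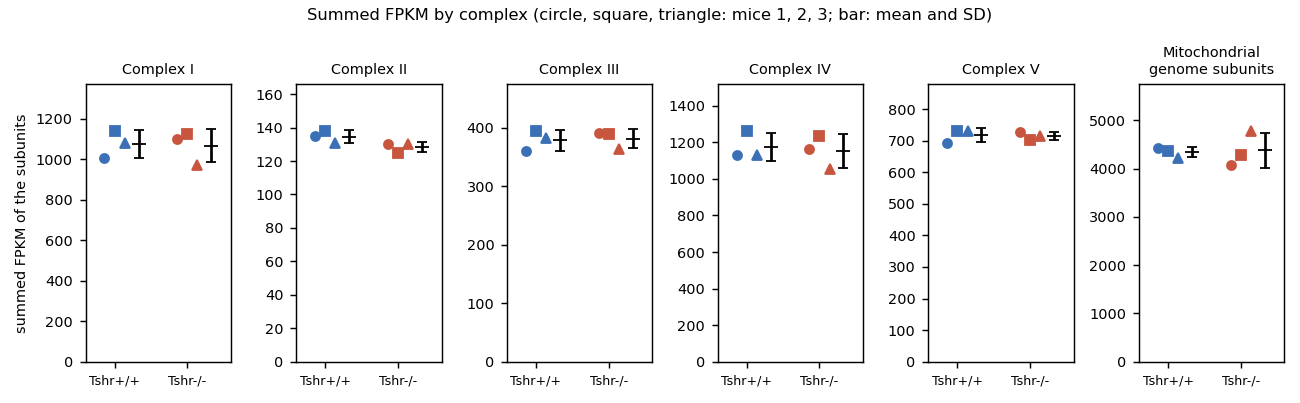
Summed FPKM of the subunits of each complex and of the 13 subunits of the mitochondrial genome, by group (blue Tshr+/+, red Tshr-/-), with 1 symbol per library and bars for the mean and SD of 3. Each axis starts at 0. The groups overlap in complexes I, III, IV and V, and the triangle of Tshr-/- 3 is the highest among the mitochondrial sums at 4784 FPKM.

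Other genes of the pathway were read from lists, and limma called 0 genes of any list in either direction. The assembly factors had median log2 differences of -0.0098 over 12 tested genes for complex I, 0.19 over 2 for complex II, 0.0055 over 5 for complex III, 0.015 over 21 for complex IV and -0.06 over 4 for complex V. Among them Cox18, which inserts a catalytic subunit of complex IV into the membrane, had 2.31 ± 0.241 FPKM in the libraries labelled Tshr+/+ and 1.56 ± 0.239 in those labelled Tshr-/- (SD, n = 3). Its groups did not overlap, with a log2 difference of -0.37 ± 0.13 (SE, limma adjusted p = 0.9997). Higd2a, the most abundant of the complex IV list, had 69.2 ± 4.26 and 65.0 ± 10.9 FPKM, and Atpaf2, a chaperone of the ATP synthase head, 5.84 ± 0.0841 and 5.28 ± 0.328 FPKM. The carriers and subunits that the naming rule missed had a median of 0.0030 over 12 tested genes, among them Cyc1, cytochrome c1 of complex III, at 36.2 ± 2.34 and 32.5 ± 2.34 FPKM.

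Of the 13 subunits of the chain encoded in the mitochondrial genome, 10 had a difference above 0, with a median of 0.06. Besides mt-Nd3, the complex I gene mt-Nd4l stood at an unadjusted limma p under 0.05, with 2.65 ± 0.0810 and 4.33 ± 1.05 FPKM (SD, n = 3). Outside the chain, the 18 genes of the citrate cycle and pyruvate dehydrogenase had a median of -0.02, and Mdh2, the mitochondrial malate dehydrogenase, had 65.1 ± 5.38 and 56.5 ± 3.56 FPKM without overlap. Of 15 tested regulators of respiratory genes, 3 had a difference above 0 and 12 below, with a median of -0.07. Tfam, the packaging factor of mitochondrial DNA, had 2.54 ± 0.278 and 2.18 ± 0.410 FPKM, and Twnk, the helicase of mitochondrial DNA, 1.91 ± 0.127 and 1.55 ± 0.130 FPKM. The 75 mitochondrial ribosomal protein genes had a median of -0.02 and the 80 cytosolic ones of -0.03, beside -0.011 over all genes. The 7 genes of nucleotide and phosphate exchange had a median of -0.06, with Slc25a3, the phosphate carrier, at 83.8 ± 12.4 and 76.5 ± 1.52 FPKM, and the 7 mitochondrial antioxidant genes of -0.04.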

How the data were processed

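The authors deposited 1 table of FPKM values for 54532 genes in 6 libraries, made from total RNA with a SMARTer mRNA kit, per the labels' protocols. Per the submitters' processing notes the genome builds were GRCm38 and mm10. How reads were aligned and counted, whether by strand, and how those with several matches were treated was not given in the sources used here. The columns headed WT and HO were read as Tshr+/+ and Tshr-/-, although HO is not spelled out. FPKM times gene length gave whole multiples of 1 step per library for 100% of values within 0.01, so whole fragments were recovered.

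The group test was that of limma 3.58.1 (R 4.3.3) on log2(FPKM + 1), over genes that reached 1 FPKM in 3 or more of the 6 libraries (variance trend, two-sided, Benjamini-Hochberg adjustment over all 10913 genes, threshold 0.05). A fold on this scale understates the change of low genes. The code was tested on simulated data. Isoform order and Tshr used exact permutation tests. Copies were found with BLAST 2.17.0 in GENCODE M21.

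The members, lists, markers and tests were chosen with earlier results of these data known. After seeing the data, ribosomal S6 kinases were taken out of the ribosomal list and a member out of the list of other subunits. Named members were, in each complex, the 2 with the smallest p in each direction, the 2 most abundant, core subunits, isoforms and those below the filter; from other lists, the most abundant gene and the 2 of smallest p. Same-numbered libraries deviated together from their group means over genes (correlations 0.2425, 0.262 and 0.468), so the titles' mouse numbers were taken as pairs in an alternative, although Tshr+/+ 2 with Tshr-/- 1 reached 0.3441. The tests reported are unpaired. Alternatives were other pseudocounts, filters, scalings and moderation, array weights, voom (10 fragments or more in 3 libraries or more), the replicate block and libraries left out; counting BC002163 with Ndufs5 was added after seeing the data. The values of 1 member are not reported here, though it counts in the totals.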

Additional observations from a re-analysis of the deposited data

How the results depend on the processing

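No setting called a member. Over all genes, 24 were called with array weights, 24 without the libraries numbered 3, and 0 to 2 with 1 library left out (2 without Tshr-/- 3). With the replicate number as a block, limma called 0 genes and 0 members, and the block changed no call. Without the libraries labelled Tshr-/- 1 and 2, the median differences were -0.090 for all members, -0.092 for complex I, -0.0056 for complex II and -0.086 for complex III, and the differences of Cox6c (-0.0093), Cox7c (-0.090), Ndufa2 (-0.15) and Sdha (0.063) changed sign. For complex II, the median was 0.0049 with equal totals, 0.0072 with quantile scaling and -0.082 without the libraries numbered 3, and its level difference was 0.0091 with equal totals. Sdha was 0.049 with equal totals and 0.037 with quantile scaling. The level difference of complex IV was 0.12 as a median over members. Equal totals and quantile scaling turned the medians of complexes I (0.042 and 0.024), IV (0.036 and 0.045) and V (0.036 and 0.028) and of all members (0.037 and 0.030) above 0 as well. With 1 library left out, the median ranged from -0.050 to 0.016 for complex I, -0.021 to 0.080 for III, -0.091 to 0.044 for IV, -0.049 to 0.044 for V (highest without Tshr-/- 3) and -0.038 to 0.026 for all members; Sdha ranged from -0.033 to 0.016 and Sdhc from -0.018 to 0.14. Equal totals moved the median of all genes from -0.011 to 0.034. The causes were not tested. With 3 libraries a group, the 95% interval still allowed differences of up to 0.5 on the log2 scale in 69 of 77 members and up to 1 in the others. The isoform order held with a pseudocount of 0.1 in the pairs tested.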

Other observations

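Promoters of the members were searched for the letters of motifs known from genes of the respiratory chain, in the 250 bases before the RefSeq start (GRCm38.p6) on both strands; 68 members had such a sequence. The core of the site of NRF1, a regulator of nuclear respiratory genes (GCGCATGC), was found in 8 (11.8%): Atp5g2, Atp5k, Atp5l, Cox6a1, Ndufa11, Ndufa6, Ndufa8 and Sdhb. It was found in 3.32% of all 17492 protein-coding genes with such a sequence, where a gene counted if any of its starts had a match. The letters of an ETS site (CCGGAAG), the site class of the regulator NRF2, stood in 12 (17.6%) and in 10.2% of all. Those of YY1 (AAGATGGC) stood in 1 (1.47%) and in 1.77% of all, and TATAAA in 6 (8.82%) and in 13.7% of all. Atp5l and Cox6a1 held both the NRF1 and the ETS letters. These are matches of letters, not binding sites, and shares were not tested.

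Some members lie close together in the genome: Ndufs8 and Ndufv1 are 94780 bases apart on chromosome 19, and Atp5d, Ndufs7 and Uqcr11 lie in a row on chromosome 10 with gaps of 103303 and 146203 bases. Their log2 differences between the genotypes were 0.04 and -0.11 for the pair and -0.16, -0.09 and 0.09 for the row on chromosome 10, and neither the pair nor the row had a single direction.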
